A study of Homo sapiens with 12 samples.

Results

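The 39 genes described here are antioxidant genes and targets of the transcription factor NRF2, taken by gene symbol from a table of 58735 genes and sorted by known role into 4 regulators, 20 classic NRF2 targets and 15 other antioxidant genes. Of these, 35 had a mean of at least 1 FPKM (fragments scaled for gene length and library size) over the 12 libraries and were tested among 13609 such genes; TXNRD2, AKR1C1, AKR1B10 and GPX2 were below that level. The cells were TFK1, an established human bile duct cancer (cholangiocarcinoma) line labelled as wild type, whose messenger RNA was sequenced to ask how nab-paclitaxel sensitises the cells to radiotherapy. Nab-paclitaxel is paclitaxel, a drug that stabilises microtubules, bound to albumin. The combination group received 1.62 ng/ml nab-paclitaxel and 6 Gy of radiation, the nab-paclitaxel group 1.62 ng/ml of drug, the radiation group 6 Gy, and the control group no treatment. RNA was taken 24 h after treatment from 3 labelled biological replicates in each group. All 4 groups are the same line, so they stand for 1 tumour's cells, and whether the replicates were separate cultures is not given, so p-values measure the spread between these libraries.

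NRF2, encoded by NFE2L2, drives genes that carry the antioxidant response element in their regulatory DNA. In unstressed cells KEAP1 holds NRF2 for degradation, and oxidants or electrophiles that modify KEAP1 release it, while BACH1 competes for the same elements and SQSTM1 can sequester KEAP1. The targets make and recycle glutathione and thioredoxin, supply NADPH, store iron and reduce quinones, and the other antioxidant genes encode dismutases, catalase, peroxidases and further enzymes that remove superoxide and peroxides. Both radiation and taxanes are known to raise reactive oxygen species in cells, and bile duct tumours can carry an active NRF2 pathway.

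Library depth was similar, at 14840283 to 17992242 fragments. The line carried its epithelial identity, with 7 of 12 biliary epithelial markers at 1 FPKM or more (KRT19 averaged 419 FPKM) although KRT7 averaged 0.533 FPKM. The summed level of those markers was 1388 to 1753 FPKM in combination, 1234 to 1388 FPKM in nab-paclitaxel, 1142 to 1220.2 FPKM in radiation and 759 to 955 FPKM in control libraries. Their part in the results below was not tested. Of 14 macrophage markers 1 (ITGAX, 1.90 FPKM) reached 1 FPKM, of 12 fibroblast markers 3 (COL1A1 highest, 5.70 FPKM) and of 12 lymphocyte and endothelial markers none, with CD68, CD14 and PTPRC all below 0.5 FPKM. CDKN1A, the p53 target that encodes the cell cycle inhibitor p21, was at 322 to 350.0 FPKM in combination, 185 to 204 FPKM in nab-paclitaxel, 196 to 205 FPKM in radiation and 108 to 122 FPKM in control libraries, with each treated group above control. Combination 2, nab-paclitaxel 1 and control 2 stood apart from the other libraries of their groups: each was the highest of its group on component 2 (22.0% of variance), and their deviations from the group means correlated across genes (r = 0.332 to 0.543, across genes that are not independent replicates). The main values below use all 12 libraries, and values without these 3 are given where they gain or end a call. These 3 were picked because they deviate, and leaving them out takes 1 library from each of their groups. Calls gained that way are therefore not independent support for a change. In bulk RNA, fewer cells of a kind and less RNA per cell cannot be told apart.

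The DNA just before the start of a gene is where several antioxidant response elements lie. The core letters TGACNNNGC were searched on both strands in 300-base RefSeq promoter windows (GRCh38.p14, 250 bases before to 50 after each start), which were available for 30 of the 39 genes. The core was in 6 of 15 NRF2 targets (7 of 18 windows, 38.9%), 1 of 11 other antioxidant genes (1 of 19 windows, 5.26%) and 1 of 4 regulators (1 of 10 windows), against 13.3% of 35116 windows of all genes. The target genes holding it were GPX2, TXNRD1, GCLM, PGD, ME1 and MGST1, the other antioxidant gene was GSTP1, and the regulator was KEAP1. The match in GSTP1 was TGACTCAGC, letters also found in ME1. The 250 bases before the start are shown for NQO1, FTL and GPX1, which are among the members with the largest changes below. They are also shown for the more upstream of the 2 windows of TXNRD1, both of which hold the core. Matches are in capitals. The regions are chr16:69726561-69726810 (minus strand), chr19:48965059-48965308 (plus), chr3:49358354-49358603 (minus) and chr12:104215529-104215778 (plus).
NQO1: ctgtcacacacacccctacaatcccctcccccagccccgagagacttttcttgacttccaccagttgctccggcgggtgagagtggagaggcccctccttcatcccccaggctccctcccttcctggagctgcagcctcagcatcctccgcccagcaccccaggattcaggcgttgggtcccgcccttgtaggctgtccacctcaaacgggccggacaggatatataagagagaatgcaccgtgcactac
FTL: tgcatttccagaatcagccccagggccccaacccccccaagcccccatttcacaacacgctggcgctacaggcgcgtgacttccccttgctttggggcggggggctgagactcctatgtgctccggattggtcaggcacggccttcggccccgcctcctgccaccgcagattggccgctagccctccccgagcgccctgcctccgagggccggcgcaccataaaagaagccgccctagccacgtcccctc
GPX1: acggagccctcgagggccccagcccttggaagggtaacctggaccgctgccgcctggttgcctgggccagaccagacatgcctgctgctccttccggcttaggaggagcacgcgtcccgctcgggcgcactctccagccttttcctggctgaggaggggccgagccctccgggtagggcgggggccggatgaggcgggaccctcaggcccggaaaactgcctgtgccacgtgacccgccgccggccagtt
TXNRD1: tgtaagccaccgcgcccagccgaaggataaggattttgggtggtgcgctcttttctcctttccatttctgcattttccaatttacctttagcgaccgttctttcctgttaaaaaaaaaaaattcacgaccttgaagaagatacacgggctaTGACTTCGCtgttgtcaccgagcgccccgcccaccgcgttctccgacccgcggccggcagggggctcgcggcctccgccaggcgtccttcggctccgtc
In its printed window TXNRD1 has TGACTTCGC at -99 to -91 from that start. A further match there on the other strand, TGACGGAGC at -8 to 1, runs past the printed end. The other TXNRD1 window, not printed (chr12:104286782-104287081), has TGACAAAGC on the other strand at -102 to -94 from its own start. NQO1, FTL and GPX1 have no core in this window, which says only that these letters are not here: the well-studied element of NQO1 lies further upstream.

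A minority of the antioxidant genes passed the test in each comparison with control, mostly as rises in cells that received nab-paclitaxel, with or without radiation, and as falls in cells that received radiation alone. Against control, the combination raised 8 members and lowered 1 of 35 (25.7%, against 22.9% of all tested genes, 12.2% higher and 10.6% lower). The share called in either direction was close to that of all genes, but the calls of members leaned more to rises. Nab-paclitaxel raised 10 and lowered 0 (28.6%, against 8.82% of all genes, 5.41% higher and 3.41% lower). Radiation raised 0 and lowered 3 (8.57%, against 5.93% of all genes, 2.48% higher and 3.45% lower), also close to the share of all genes. A call is a limma Benjamini-Hochberg adjusted p under 0.05 over all tested genes. Where the count was 0, limma at an unadjusted p under 0.05 gave 0 members lower with nab-paclitaxel and 1 higher with radiation, and limma's voom on recovered fragments gave 0 and 1. The libraries of the compared groups did not overlap for 15 of 35 members with the combination (37.3% of all tested genes), 18 with nab-paclitaxel (26.1%) and 12 with radiation (28.4%). These 3 comparisons share the control libraries.

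The median log2 fold change of the 35 members was 0.17 for the combination, 0.31 for nab-paclitaxel and -0.07 for radiation, where the medians of all tested genes were 0.00, 0.04 and -0.02. Positive values were seen in 25 of 35 members with the combination, in 31 with nab-paclitaxel and in 13 with radiation. Of all 13609 tested genes, 6854, 7628 and 6315 were positive, in that order. A moderated F test for any difference among the 4 groups called 17 of 35 members (25.3% of all genes): 7 of 17 NRF2 targets, 9 of 14 other antioxidant genes and 1 of 4 regulators. Without combination 2, nab-paclitaxel 1 and control 2 the F test called 26 members, and the counts against control became 16 higher and 3 lower for the combination, 15 higher and 0 lower for nab-paclitaxel, and 1 higher and 11 lower for radiation. The same change took all tested genes to 5049 calls for the combination, 1836 for nab-paclitaxel and 2947 for radiation, against 3111, 1200 and 807 with all libraries.

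The calls differed in how firmly they held. Counted over the 5 comparisons of groups, members passed 33 times, and 12 of these calls held in every alternative in which the gene was fitted (GPX1, annotated as a polymorphic pseudogene, was not in the fit of protein-coding genes): SOD1, CAT, GPX1, GPX4, PRDX1, GSS and FTL for the combination against control, NQO1 for radiation against control, and SOD1, CAT, GSS and NQO1 for the combination against radiation. Of the radiation calls, TXNRD1 was lost in 20 of 24 alternatives and GSR in 11. None of the nab-paclitaxel calls held in every alternative, although those of SOD1, CAT and GPX4 were each lost in only 1 of 24. With only nab-paclitaxel and control libraries in the fit, limma called 0 members (adjusted p = 0.0929 to 0.241 for the 10 genes; 13 higher and 0 lower at an unadjusted p under 0.05) and 8 of all genes. Without the filter on low values, FTL, GPX1, NQO1, PRDX1, PRDX2 and TXN2 missed the threshold for nab-paclitaxel (adjusted p = 0.0509 to 0.101). Quantile normalization ended 6 of those 10 calls (GPX1, GSR, NQO1, PRDX1, PRDX2 and TXN2), and TPM scaling ended 4 of them (GPX1, GSR, PRDX2 and TXN2). For radiation the deposited scaling gave 0 higher and 3 lower, size factors over the tested genes 1 higher and 2 lower, and quantile normalization 1 higher and 1 lower, with GPX1 as the gene gained.

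The 3 role groups gave different counts. Of 17 NRF2 targets tested, the combination raised 2 and lowered 1 (median log2 fold change 0.11), nab-paclitaxel raised 4 (median 0.28) and radiation lowered 3 (median -0.10). Of 14 other antioxidant genes, the combination raised 6 (median 0.29), nab-paclitaxel raised 6 (median 0.34) and radiation changed 0 (median -0.06; 1 higher and 1 lower at an unadjusted p under 0.05, and 1 higher by voom). Of 4 regulators 0 passed in any comparison. The shares called with the combination, nab-paclitaxel and radiation, in that order, were 17.6%, 23.5% and 17.6% of the NRF2 targets. They were 42.9%, 42.9% and 0% of the other antioxidant genes, against 22.9%, 8.82% and 5.93% of all tested genes. The NRF2 targets were thus called less often than all genes with the combination. With so few genes in a role group, a single call moves its share a lot. No difference between the role groups was tested. Library by library, the median of the other antioxidant genes relative to the control mean was 0.32 to 0.48 in combination, 0.20 to 0.55 in nab-paclitaxel and -0.04 to -0.03 in radiation libraries, so radiation lay near control and both drug groups above it. For the NRF2 targets it was 0.01 to 0.13 in combination, 0.23 to 0.37 in nab-paclitaxel and -0.12 to -0.08 in radiation libraries, and combination libraries lay between the other treated groups.

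**Figure D1:**
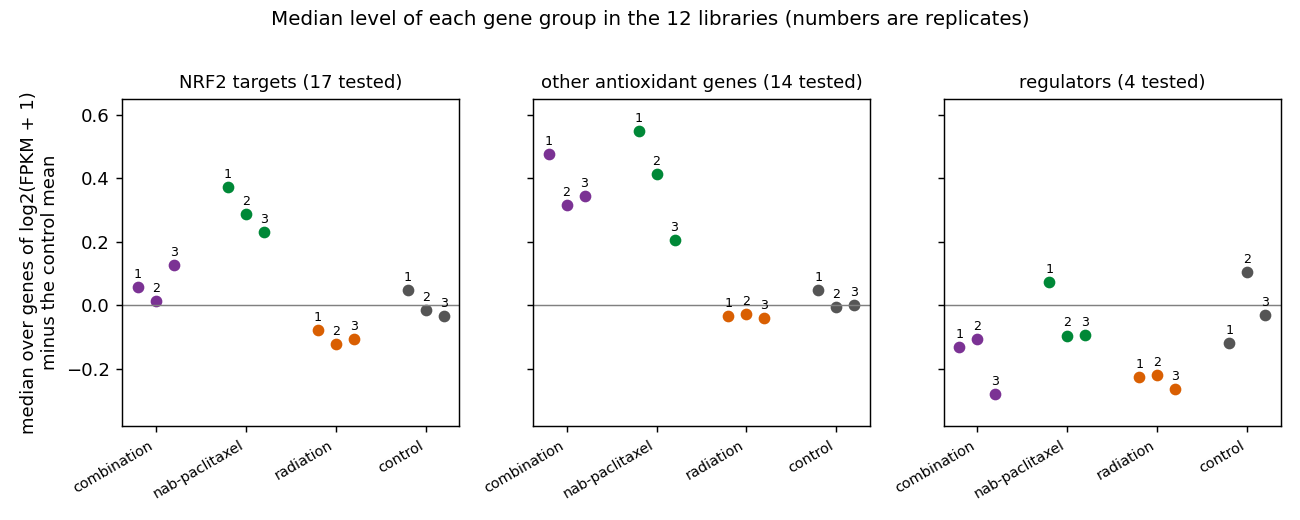
Median over the tested genes of each role group of log2(FPKM + 1) minus the control mean (y axis), per library, for combination, nab-paclitaxel, radiation and control; numbers are replicate labels. NRF2 targets lie at 0.23 to 0.37 in nab-paclitaxel and at -0.12 to -0.08 in radiation libraries, and other antioxidant genes lie at 0.32 to 0.48 in combination libraries.

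The regulators showed no called change. NFE2L2, which encodes NRF2 itself, had 21.8, 27.4 and 21.3 FPKM in combination, 39.4, 23.7 and 26.3 FPKM in nab-paclitaxel, 21.6, 21.4 and 22.8 FPKM in radiation and 26.0, 36.4 and 26.7 FPKM in control libraries. The high nab-paclitaxel and control values are those of nab-paclitaxel 1 and control 2, and radiation libraries lay below all control libraries (log2 fold change -0.41 ± 0.18 SE, adjusted p = 0.243). NFE2L2 was above the group mean in each of the 3 libraries that stood apart. In the fit without them its change passed, at -0.25 with radiation (adjusted p = 0.0151) and -0.28 with the combination (adjusted p = 0.00861). KEAP1, the repressor of NRF2, had 10.7, 8.501 and 11.1 FPKM in combination, 13.4, 13.4 and 12.4 FPKM in nab-paclitaxel, 9.73, 9.65 and 8.27 FPKM in radiation and 11.8, 11.6 and 14.0 FPKM in control libraries. It differed among the groups by the F test (adjusted p = 0.0213), and both radiation-treated groups lay below control without overlap, but no single comparison passed (radiation -0.40 ± 0.11, adjusted p = 0.0572; combination -0.28 ± 0.11, adjusted p = 0.0866). KEAP1 passed for radiation without combination 2 (adjusted p = 0.0329), without nab-paclitaxel 1 (adjusted p = 0.0499) and without all 3 libraries that stood apart (-0.44, adjusted p = 0.0113). SQSTM1, the autophagy receptor that binds KEAP1, averaged 37.1 ± 1.89 FPKM (SD, 3 libraries each, as elsewhere) in combination, 38.9 ± 2.70 FPKM in nab-paclitaxel, 34.3 ± 0.906 FPKM in radiation and 38.1 ± 4.28 FPKM in control libraries. SQSTM1 fell with radiation without the 3 libraries that stood apart (-0.23, adjusted p = 0.0345). BACH1, the competing repressor, averaged 9.05 ± 2.16 FPKM in combination, 8.68 ± 1.15 FPKM in nab-paclitaxel, 9.18 ± 0.198 FPKM in radiation and 9.62 ± 2.03 FPKM in control libraries, and all groups overlapped.

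NQO1, the quinone reductase often read as a marker of NRF2 activity, was the member with calls in all 5 comparisons of groups. NQO1 (chr16:69706996-69726951, minus strand, hg38) had 105, 103 and 106 FPKM in combination, 187, 149 and 153 FPKM in nab-paclitaxel, 73.5, 71.5 and 73.1 FPKM in radiation and 131, 128 and 122 FPKM in control libraries. The 4 groups did not overlap anywhere, with nab-paclitaxel highest, then control, then the combination, then radiation. NQO1 fell with radiation (-0.80 ± 0.09, adjusted p = 0.000819), the largest fall with radiation among the 35 members, and that call held in every alternative run. It rose with nab-paclitaxel (0.35 ± 0.09, adjusted p = 0.0338) and fell with the combination (-0.27 ± 0.09, adjusted p = 0.0458). The rise was lost on leaving out any 1 of 8 libraries, namely combination 1 or 3 and each radiation and control library (adjusted p up to 0.0997). It also missed the threshold with the replicate number as a block (adjusted p = 0.0539), although replicate numbers did not pair nab-paclitaxel with control. The fall with the combination was lost on leaving out any 1 of 10 libraries, all but nab-paclitaxel 1 and 2 (adjusted p up to 0.117). It was also lost with the replicate block, which was taken to pair these groups (adjusted p = 0.0595). Without the 3 libraries that stood apart all of them passed, at -0.25 for the combination (adjusted p = 0.00518), 0.26 for nab-paclitaxel (adjusted p = 0.0155) and -0.79 for radiation (adjusted p = 0.000113).

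The disulfide reductases GSR and TXNRD1 were likewise highest with nab-paclitaxel and lowest with radiation. GSR, which regenerates reduced glutathione, had 64.5, 62.6 and 68.1 FPKM in combination, 82.0, 81.4 and 73.2 FPKM in nab-paclitaxel, 50.6, 50.9 and 49.99 FPKM in radiation and 61.7, 60.8 and 64.2 FPKM in control libraries. Nab-paclitaxel libraries were above and radiation libraries below control, while combination and control overlapped. GSR rose with nab-paclitaxel (0.34 ± 0.07, adjusted p = 0.0189; lost without nab-paclitaxel 2, adjusted p = 0.0597) and fell with radiation (-0.30 ± 0.07, adjusted p = 0.0335). The fall was lost without combination 1 or 3, any radiation library, or control 1 or 3 (adjusted p = 0.0538 to 0.13). It was also lost under the replicate block (adjusted p = 0.0818), although replicate numbers did not pair radiation with control. Without the 3 libraries that stood apart the fall was -0.31 (adjusted p = 0.00673). TXNRD1 (chr12:104215779-104350305, plus strand), which reduces thioredoxin, had 102, 106 and 106 FPKM in combination, 118, 124 and 124 FPKM in nab-paclitaxel, 89.5, 93.0 and 94.6 FPKM in radiation and 115, 109 and 107 FPKM in control libraries. Its groups did not overlap, and it fell with radiation (-0.25 ± 0.07, adjusted p = 0.0472). That call is weak: 11 of the 12 single-library omissions, all but nab-paclitaxel 1, ended it (adjusted p = 0.0574 to 0.196). The replicate block, which does not pair these groups, ended it too (adjusted p = 0.101). The TXNRD1 fall passed without the 3 libraries that stood apart (-0.26, adjusted p = 0.00757). TXNRD1 spans the processed pseudogene RPL18AP3, listed at 152 to 251 FPKM, and whether counting used the strand is not given.

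**Figure D2:**
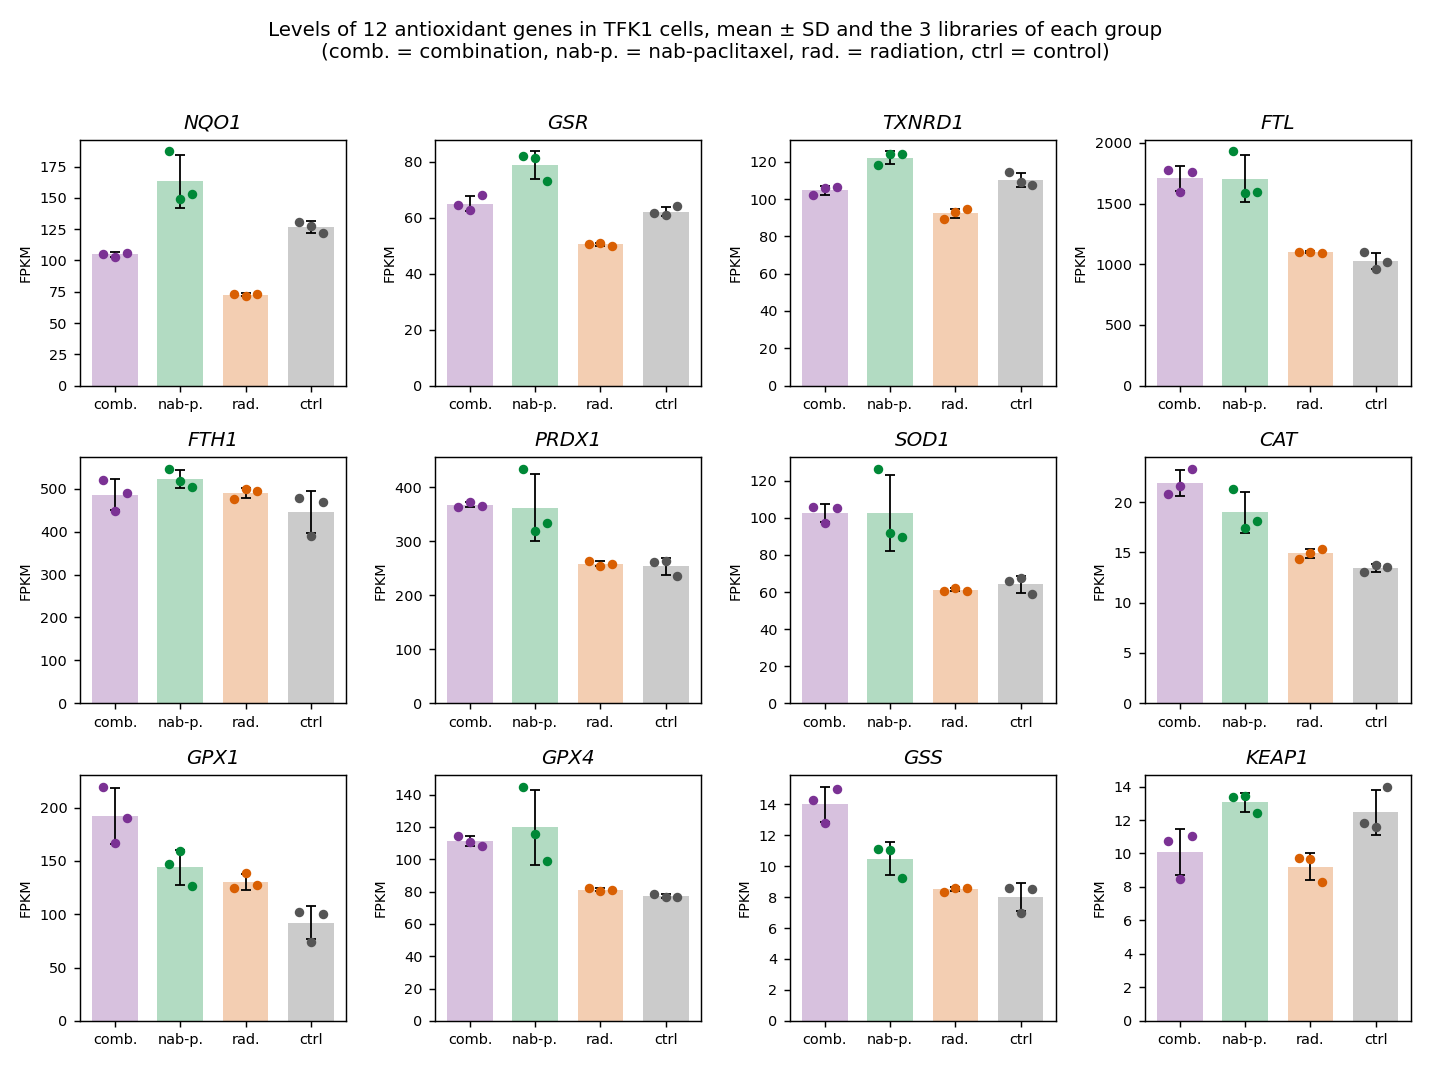
FPKM (y axes, from 0) of 12 member genes in combination (comb.), nab-paclitaxel (nab-p.), radiation (rad.) and control (ctrl) libraries; bars are means, error bars SD and points the 3 libraries. NQO1 has 4 separate levels with radiation lowest at 71.5 to 73.5 FPKM, and FTL, PRDX1, SOD1, CAT and GPX4 are higher in both groups that received the drug.

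Of the remaining thiol proteins among the NRF2 targets, PRDX1 rose with both drug treatments. PRDX1, the main cytosolic peroxiredoxin, had 364, 373 and 365 FPKM in combination, 434, 319.5 and 333 FPKM in nab-paclitaxel, 263, 253 and 258 FPKM in radiation and 262, 263 and 235 FPKM in control libraries. Both drug groups lay above every radiation and control library, and PRDX1 rose with the combination (0.54 ± 0.11, adjusted p = 0.00518) and with nab-paclitaxel (0.50 ± 0.11, adjusted p = 0.0193; lost without control 3, adjusted p = 0.0649). TXN, thioredoxin itself, had 151, 165 and 152 FPKM in combination, 229.8, 129 and 124 FPKM in nab-paclitaxel, 105, 94.4 and 106 FPKM in radiation and 107, 121 and 90.0 FPKM in control libraries. The drug groups again lay above the others, yet nab-paclitaxel 1 widened the spread, and the changes were 0.56 ± 0.20 with the combination (adjusted p = 0.0629) and 0.55 ± 0.20 with nab-paclitaxel (adjusted p = 0.106). Without nab-paclitaxel 1, TXN passed for the combination (adjusted p = 0.00274), and without all 3 libraries that stood apart it rose by 0.62 with the combination (adjusted p = 0.00125) and by 0.36 with nab-paclitaxel (adjusted p = 0.033). SRXN1, which repairs overoxidised peroxiredoxins, averaged 2.80 ± 0.447 FPKM in combination, 3.32 ± 1.41 FPKM in nab-paclitaxel, 2.78 ± 0.535 FPKM in radiation and 2.60 ± 0.985 FPKM in control libraries, and its groups overlapped.

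The ferritin subunits, which together form the iron storage shell, did not move alike. FTL, the light chain and the most abundant member (chr19:48965301-48966878, plus strand), had 1776, 1593 and 1759 FPKM in combination, 1932, 1587 and 1599 FPKM in nab-paclitaxel, 1105, 1102 and 1092 FPKM in radiation and 1097, 964 and 1019.5 FPKM in control libraries. The 6 libraries with drug were all above the 6 without, and FTL rose with the combination (0.73 ± 0.10, adjusted p = 0.000523) and with nab-paclitaxel (0.73 ± 0.10, adjusted p = 0.0029). FTH1, the heavy chain that oxidises iron, had 521, 448 and 491 FPKM in combination, 547, 517 and 505 FPKM in nab-paclitaxel, 477, 499 and 496 FPKM in radiation and 478, 389.9 and 468 FPKM in control libraries. It passed in no comparison, with 0.13 ± 0.10 for the combination (adjusted p = 0.355) and 0.24 ± 0.10 for nab-paclitaxel (adjusted p = 0.141). The ratio of FTL to FTH1 FPKM was 3.51 ± 0.0930 in combination, 3.26 ± 0.245 in nab-paclitaxel, 2.24 ± 0.0652 in radiation and 2.31 ± 0.149 in control libraries, a split by drug that was not tested. Reads of both genes can match pseudogenes: 16 annotated copies of FTL summed to 2.94 FPKM, and 25 of FTH1 summed to 35.5 FPKM, of which FTH1P7 had 18.4 FPKM.

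The NRF2 targets that make glutathione and NADPH gave no call against control. GCLC, the catalytic subunit of the enzyme that starts glutathione synthesis, averaged 12.1 ± 0.351 FPKM in combination, 13.8 ± 1.44 FPKM in nab-paclitaxel, 13.3 ± 0.230 FPKM in radiation and 14.4 ± 1.54 FPKM in control libraries, with every combination library below every control library (-0.23 ± 0.09, adjusted p = 0.0942). GCLC fell with the combination without nab-paclitaxel 1 (adjusted p = 0.0472), after quantile normalization (-0.28, adjusted p = 0.0299) and without the 3 libraries that stood apart (-0.17, adjusted p = 0.0463). GCLM, its modifier subunit, averaged 9.07 ± 1.65 FPKM in combination, 9.53 ± 2.11 FPKM in nab-paclitaxel, 8.73 ± 0.774 FPKM in radiation and 8.34 ± 1.66 FPKM in control libraries. TALDO1, of the pentose phosphate pathway that yields NADPH, had 35.5, 31.2 and 34.3 FPKM in combination, 50.5, 41.6 and 39.7 FPKM in nab-paclitaxel, 29.2, 31.9 and 31.1 FPKM in radiation and 37.0, 35.5 and 34.9 FPKM in control libraries. Nab-paclitaxel libraries were all above and radiation libraries all below control, and TALDO1 differed among the groups by the F test (adjusted p = 0.014), with no single comparison passing. PGD, the NADPH-yielding dehydrogenase of that pathway, averaged 38.0 ± 4.12 FPKM in combination, 45.03 ± 3.27 FPKM in nab-paclitaxel, 33.9 ± 0.268 FPKM in radiation and 39.4 ± 5.09 FPKM in control libraries. TKT, its transketolase, averaged 50.6 ± 6.41 FPKM in combination, 49.2 ± 5.57 FPKM in nab-paclitaxel, 36.2 ± 1.63 FPKM in radiation and 39.7 ± 6.92 FPKM in control libraries. ME1, a further NADPH source, overlapped in all groups, at 21.3 to 25.9 FPKM in combination, 20.7 to 29.8 FPKM in nab-paclitaxel, 19.7 to 21.0 FPKM in radiation and 20.4 to 28.1 FPKM in control libraries. Without the 3 libraries that stood apart, PGD (-0.31, adjusted p = 0.00996), TALDO1 (-0.22, adjusted p = 0.0239) and TKT (-0.26, adjusted p = 0.0202) fell with radiation, and TKT rose with the combination (0.31, adjusted p = 0.00931).

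Of the other NRF2 targets, MGST1, a membrane glutathione transferase, had 6.41, 7.66 and 6.86 FPKM in combination, 11.6, 6.78 and 7.68 FPKM in nab-paclitaxel, 4.66, 4.38 and 4.64 FPKM in radiation and 5.88, 8.28 and 5.32 FPKM in control libraries. Radiation libraries were the lowest, and the F test passed (adjusted p = 0.035) while radiation against control did not (-0.41 ± 0.18, adjusted p = 0.221). HMOX1, the haem oxygenase, averaged 8.72 ± 1.60 FPKM in combination, 9.55 ± 2.71 FPKM in nab-paclitaxel, 7.72 ± 0.894 FPKM in radiation and 6.80 ± 1.67 FPKM in control libraries. OSGIN1, an oxidative stress response gene, averaged 7.55 ± 1.54 FPKM in combination, 7.32 ± 0.645 FPKM in nab-paclitaxel, 7.67 ± 0.469 FPKM in radiation and 6.23 ± 1.85 FPKM in control libraries. Their groups overlapped, and with all 12 libraries neither passed in any comparison. In the fit without the 3 libraries that stood apart, HMOX1 rose with nab-paclitaxel (0.45, adjusted p = 0.0452), and MGST1 rose with nab-paclitaxel (0.32, adjusted p = 0.0331) and fell with radiation (-0.25, adjusted p = 0.0413). The 4 members below the filter stayed low. GPX2, an epithelial glutathione peroxidase, had 0 to 12 recovered fragments per library. The aldo-keto reductase AKR1B10 had 15 to 42 fragments in combination, 2 to 5 in nab-paclitaxel, 14 to 30 in radiation and 4 to 11 in control libraries, too few to weigh (adjusted p = 0.0989 for the combination in a fit without a filter). The aldo-keto reductase AKR1C1 had 0.363 to 0.495 FPKM in combination, 0.593 to 0.667 FPKM in nab-paclitaxel, 0.291 to 0.498 FPKM in radiation and 0.611 to 0.832 FPKM in control libraries, and its reads are hard to tell from those of AKR1C2. TXNRD2, the mitochondrial thioredoxin reductase of the other antioxidant genes, had 0.651 to 1.03 FPKM over all 12 libraries.

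**Figure D3:**
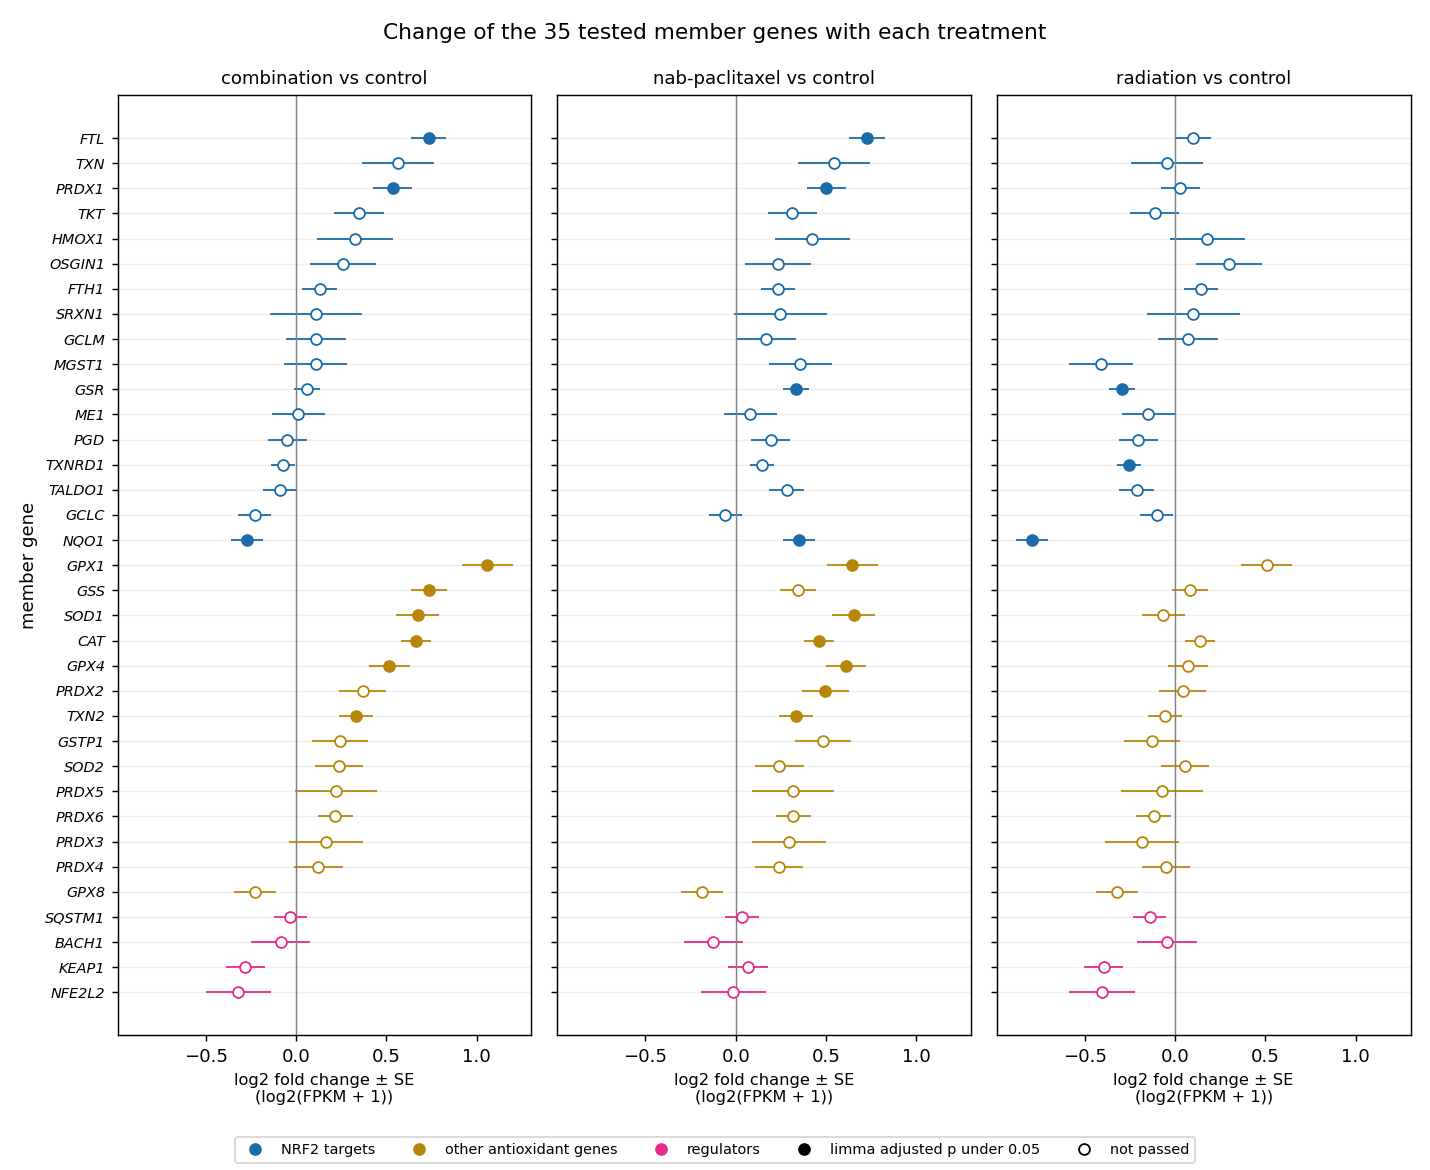
Log2 fold change ± SE on log2(FPKM + 1) of the 35 tested members against control, for combination, nab-paclitaxel and radiation; filled points passed the limma threshold. GPX1 has the largest change with the combination (1.06) and NQO1 the largest fall with radiation (-0.80).

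Among the other antioxidant genes GPX1, the main cytosolic glutathione peroxidase (chr3:49357171-49358600, minus strand), had the largest rise of any member with the combination. GPX1 had 219.7, 167 and 190.0 FPKM in combination, 147, 159 and 126 FPKM in nab-paclitaxel, 125, 139 and 127 FPKM in radiation and 102, 74.3 and 100.3 FPKM in control libraries. Each treated group lay above control, and combination lay above both single treatments. It rose with the combination (1.06 ± 0.14, adjusted p = 0.00053) and with nab-paclitaxel (0.65 ± 0.14, adjusted p = 0.0202; lost without nab-paclitaxel 1 or 2, adjusted p up to 0.0629), and radiation gave 0.51 ± 0.14 (adjusted p = 0.0589). With radiation GPX1 passed with size factors over the tested genes, by voom, after quantile normalization (0.67, adjusted p = 0.0145) and without the 3 libraries that stood apart (0.36, adjusted p = 0.0398). GPX4, the peroxidase that reduces lipid peroxides in membranes, had 114, 111 and 108 FPKM in combination, 145, 116 and 99.1 FPKM in nab-paclitaxel, 82.2, 80.6 and 80.6 FPKM in radiation and 78.5, 76.6 and 76.6 FPKM in control libraries. GPX4 rose with the combination (0.52 ± 0.11, adjusted p = 0.00756) and with nab-paclitaxel (0.61 ± 0.11, adjusted p = 0.0112), and all drug libraries were above all others. GPX8, a peroxidase of the endoplasmic reticulum, averaged 9.36 ± 0.876 FPKM in combination, 9.66 ± 1.28 FPKM in nab-paclitaxel, 8.70 ± 0.868 FPKM in radiation and 11.1 ± 1.27 FPKM in control libraries, the only other antioxidant gene with negative values for the combination and nab-paclitaxel, none of them past the threshold.

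Superoxide dismutase 1 and catalase rose with both drug treatments. SOD1, the copper-zinc dismutase of the cytosol, had 106, 97.1 and 105 FPKM in combination, 126, 91.6 and 89.8 FPKM in nab-paclitaxel, 60.8, 62.0 and 60.6 FPKM in radiation and 65.9, 67.5 and 59.0 FPKM in control libraries. The rise was 0.67 ± 0.12 with the combination (adjusted p = 0.00259) and 0.65 ± 0.12 with nab-paclitaxel (adjusted p = 0.0107), and radiation libraries overlapped control. CAT, which breaks down hydrogen peroxide, had 20.9, 21.6 and 23.3 FPKM in combination, 21.3, 17.5 and 18.1 FPKM in nab-paclitaxel, 14.4, 15.0 and 15.3 FPKM in radiation and 13.0, 13.8 and 13.6 FPKM in control libraries. The rise was 0.66 ± 0.08 with the combination (adjusted p = 0.000379) and 0.46 ± 0.08 with nab-paclitaxel (adjusted p = 0.0106), and radiation libraries were slightly above control without passing (0.14 ± 0.08, adjusted p = 0.41). SOD2, the manganese dismutase of mitochondria, averaged 5.31 ± 0.520 FPKM in combination, 5.37 ± 0.976 FPKM in nab-paclitaxel, 4.55 ± 0.215 FPKM in radiation and 4.40 ± 0.961 FPKM in control libraries, with no call from all 12 libraries. SOD2 rose with the combination without control 2 (0.38, adjusted p = 0.0475) and without the 3 libraries that stood apart (0.31, adjusted p = 0.00981), and in the last setting also with nab-paclitaxel (0.26, adjusted p = 0.0455).

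GSS, which completes glutathione synthesis, was high in the combination. It had 14.3, 12.8 and 15.0 FPKM in combination, 11.1, 11.04 and 9.23 FPKM in nab-paclitaxel, 8.34, 8.59 and 8.62 FPKM in radiation and 8.57, 6.98 and 8.51 FPKM in control libraries. GSS rose with the combination (0.74 ± 0.10, adjusted p = 0.000549), a call kept in every alternative run, and nab-paclitaxel gave 0.35 ± 0.10 (adjusted p = 0.0514), which passed without nab-paclitaxel 3 (adjusted p = 0.0357). TXN2, the mitochondrial thioredoxin, had 25.3, 23.1 and 24.5 FPKM in combination, 26.4, 25.6 and 21.3 FPKM in nab-paclitaxel, 18.7, 17.6 and 18.6 FPKM in radiation and 20.4, 17.3 and 19.6 FPKM in control libraries. It rose by 0.33 ± 0.09 with the combination (adjusted p = 0.0257) and by 0.33 ± 0.09 with nab-paclitaxel (adjusted p = 0.0493). The combination call was lost without combination 1 or 3 or control 2 or 3 (adjusted p up to 0.0878). No filter, TPM scaling, quantile normalization and a fit of only the groups compared each ended it too (adjusted p up to 0.0893). The nab-paclitaxel call was lost in 11 of 12 single-library omissions, all but nab-paclitaxel 3 (adjusted p up to 0.126). It was also lost without the 3 libraries that stood apart (0.21, adjusted p = 0.124). The replicate block, which does not pair these groups, ended it too (adjusted p = 0.069).

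The peroxiredoxins PRDX2 to PRDX6 had positive values with both drug treatments, and 1 of them passed. PRDX2 of the cytosol had 74.9, 57.9 and 68.6 FPKM in combination, 69.5, 77.8 and 72.3 FPKM in nab-paclitaxel, 51.8, 54.0 and 53.2 FPKM in radiation and 58.7, 41.5 and 56.1 FPKM in control libraries. It rose with nab-paclitaxel (0.50 ± 0.13, adjusted p = 0.0382), a call lost in 9 of 12 single-library omissions, all but combination 1 and 2 and control 1 (adjusted p up to 0.1). The replicate block, which does not pair these groups, ended the PRDX2 call too (adjusted p = 0.0575). PRDX6, which also reduces phospholipid peroxides, had 68.5, 66.9 and 64.8 FPKM in combination, 85.3, 65.6 and 66.0 FPKM in nab-paclitaxel, 50.8, 53.5 and 53.6 FPKM in radiation and 59.6, 57.2 and 55.0 FPKM in control libraries. Its groups lay apart in the order drug, control, radiation, the F test passed (adjusted p = 0.021), and no single comparison did. PRDX3 of mitochondria averaged 80.7 ± 12.1 FPKM in combination, 90.4 ± 28.4 FPKM in nab-paclitaxel, 62.5 ± 2.83 FPKM in radiation and 72.5 ± 17.1 FPKM in control libraries. PRDX4 of the secretory pathway averaged 58.4 ± 1.08 FPKM in combination, 64.5 ± 15.8 FPKM in nab-paclitaxel, 51.6 ± 0.465 FPKM in radiation and 53.6 ± 4.97 FPKM in control libraries. PRDX5 averaged 93.3 ± 26.4 FPKM in combination, 97.9 ± 16.4 FPKM in nab-paclitaxel, 74.4 ± 9.60 FPKM in radiation and 79.5 ± 19.3 FPKM in control libraries. With all 12 libraries none of these 3 passed in any comparison. Without the 3 libraries that stood apart, PRDX3 rose with the combination (0.23, adjusted p = 0.0253) and with nab-paclitaxel (0.24, adjusted p = 0.0482), PRDX4 rose with the combination (0.18, adjusted p = 0.0156), and so did PRDX2 (0.32, adjusted p = 0.00496) and PRDX6 (0.22, adjusted p = 0.0189). GSTP1, a glutathione transferase of epithelia and tumours, had 163, 118 and 154 FPKM in combination, 176, 172 and 162 FPKM in nab-paclitaxel, 107, 115 and 112 FPKM in radiation and 145, 94.1 and 131 FPKM in control libraries. Nab-paclitaxel lay above control, and with all 12 libraries GSTP1 passed only the F test (adjusted p = 0.0438). It rose with the combination (0.20, adjusted p = 0.0432) and with nab-paclitaxel (0.27, adjusted p = 0.0318) and fell with radiation (-0.31, adjusted p = 0.00953) in the fit without the 3 libraries that stood apart.

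Against radiation alone the combination raised 10 of 35 members and lowered 0 (28.6%, against 7.75% of all tested genes, 4.81% higher and 2.95% lower), with 0 lower at an unadjusted p under 0.05 and 0 lower by voom. The median log2 fold change was 0.29, against 0.03 for all genes. All 14 other antioxidant genes had positive values, as did 7439 of all 13609 tested genes. The libraries of these groups did not overlap for 22 of 35 members (40.5% of all tested genes). Among the rises were SOD1 (0.74 ± 0.12, adjusted p = 0.00586), GSS (0.65 ± 0.10, adjusted p = 0.00486), FTL (0.63 ± 0.10, adjusted p = 0.0051), CAT (0.53 ± 0.08, adjusted p = 0.00586) and NQO1 (0.52 ± 0.09, adjusted p = 0.00725). GPX1, PRDX1, GPX4, TXN2 and GSR also rose, by 0.36 to 0.55, with adjusted p of 0.0155 to 0.0382. Those last 5 calls were each lost on leaving out combination 1, combination 3 or any radiation library, and the GPX4 call also without combination 2, with adjusted p from 0.051 to 0.136. The GPX1 call was also lost under the replicate block (adjusted p = 0.0643), although replicate numbers did not pair these groups. Without the filter on low values FTL, GPX1, GPX4, PRDX1 and TXN2 missed the threshold (adjusted p = 0.0602 to 0.101), and quantile normalization ended those calls and that of GSR (adjusted p = 0.103 to 0.183). Without the 3 libraries that stood apart 22 members rose, the 12 further ones being PRDX2, PRDX3, PRDX4, PRDX5, PRDX6, TXN, TXNRD1, PGD, TALDO1, TKT, GSTP1 and MGST1 (0.16 to 0.57, adjusted p = 0.00104 to 0.0389). That omission also took all tested genes to 4128 calls, against 1055 with all libraries.

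Against nab-paclitaxel alone the combination lowered 1 member and raised 0 (2.86%, against 3.92% of all tested genes, 1.21% higher and 2.7% lower). At an unadjusted p under 0.05, 3 members were higher and 6 lower, and voom called 1 in each direction. The member was NQO1 (-0.63 ± 0.09, adjusted p = 0.00365). Negative values were seen in 25 of 35 members, with a median of -0.10, and in 7350 of all 13609 tested genes. With only these 2 groups in the fit NQO1 missed the threshold (adjusted p = 0.0758), and limma called 0 members there (2 higher and 5 lower at an unadjusted p under 0.05). Quantile normalization gave 2 higher and 2 lower. The libraries of these groups did not overlap for 9 of 35 members (20.9% of all tested genes, 8.66% higher and 12.3% lower). GSR (-0.27 ± 0.07, adjusted p = 0.062) and TALDO1 (-0.37 ± 0.10, adjusted p = 0.0559) lay below nab-paclitaxel in every combination library, and GSS (0.39 ± 0.10, adjusted p = 0.0535) and GPX1 (0.41 ± 0.14, adjusted p = 0.15) above it. Without control 2 alone GSR (adjusted p = 0.0463) and GSS (adjusted p = 0.0252) passed. Without all 3 libraries that stood apart, CAT (0.29, adjusted p = 0.028), GPX1 (0.52, adjusted p = 0.0252) and GSS (0.49, adjusted p = 0.00785) were higher, and TXNRD1 (-0.25, adjusted p = 0.0223) and NQO1 (-0.51, adjusted p = 0.00126) lower. All tested genes went to 1301 calls in that setting, against 533 with all libraries.

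The interaction of drug and radiation, which asks whether the combination departs from the sum of the single treatments on the log scale, was called for 0 of 35 members and 0% of all tested genes by limma. At an unadjusted p under 0.05 it gave 1 member, GSS (0.31 ± 0.14), and 443 of all genes (3.26%), and voom gave 0 members. For NQO1 the single changes of 0.35 and -0.80 stood beside -0.27 for the combination, with an interaction of 0.17 ± 0.13. For FTL the single changes of 0.73 and 0.10 stood beside 0.73, with an interaction of -0.09 ± 0.14. For GPX1 the single changes of 0.65 and 0.51 stood beside 1.06, with an interaction of -0.10 ± 0.20. A call that misses the threshold does not show that the treatments add without interacting.

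Library differences within groups touched the members unevenly. Combination 2 was farthest from its group mean for 25 of 35 members, nab-paclitaxel 1 for 22 and control 2 for 23. The root mean square deviation on the log2 scale was 0.18 for combination 2, 0.26 for nab-paclitaxel 1 and 0.25 for control 2, against 0.18 for nab-paclitaxel 2, 0.09 to 0.14 in the other combination, nab-paclitaxel and control libraries and 0.05 to 0.07 in the radiation libraries. By this measure combination 2 lay no farther out than nab-paclitaxel 2. The 3 libraries deviated with the same sign for 19 of 35 members, 12 upward and 7 downward. Among the members high in all 3 were PRDX3, MGST1, NFE2L2 and GCLM, and among those low in all 3 were OSGIN1 and SRXN1. The cause of these library differences was not tested.

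**Figure D4:**
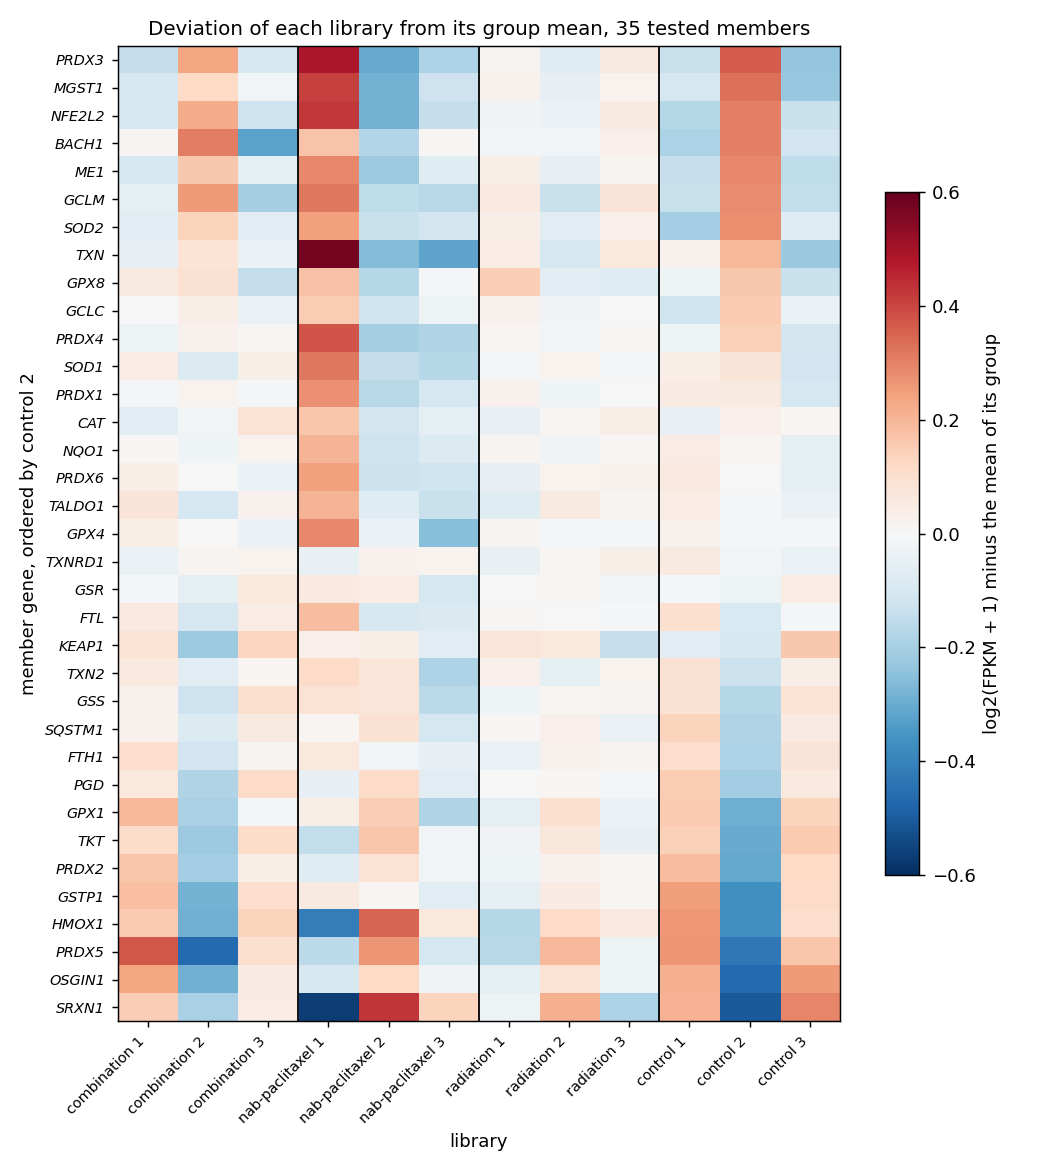
Deviation of log2(FPKM + 1) from the group mean (colour) for the 35 tested members (rows, ordered by control 2) in the 12 libraries (columns). Nab-paclitaxel 1 and control 2 carry the strongest colours (root mean square 0.26 and 0.25), combination 2 and nab-paclitaxel 2 come next (0.18 each), and the radiation libraries are nearly blank.

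Further genes of the pathway, not members, gave a mixed picture. Of 13 tested genes that control NRF2 or share its binding partners, the combination raised 3 and lowered 3, nab-paclitaxel raised 1 and lowered 0, and radiation raised 1 and lowered 1. Of all tested genes 22.9% were called with the combination (12.2% higher and 10.6% lower). The shares were 8.82% with nab-paclitaxel (5.41% and 3.41%) and 5.93% with radiation (2.48% and 3.45%). NFE2L3, a relative of NRF2, averaged 57.0 FPKM in combination, 38.1 FPKM in nab-paclitaxel, 46.1 FPKM in radiation and 29.7 FPKM in control libraries, and rose with the combination (0.92 ± 0.11, adjusted p = 0.000343) and with radiation (0.62 ± 0.11, adjusted p = 0.0087). BTRC, part of a ubiquitin ligase that targets NRF2, also rose with the combination (0.30 ± 0.10, adjusted p = 0.043). MAFG, a small MAF partner of NRF2 on DNA, fell with the combination (-0.37 ± 0.06, adjusted p = 0.00197) and with radiation (-0.28 ± 0.06, adjusted p = 0.0233). TRIM21, a ubiquitin ligase, rose with the combination (0.83 ± 0.14, adjusted p = 0.00226) and with nab-paclitaxel (0.66 ± 0.14, adjusted p = 0.0202). SYVN1, a ubiquitin ligase of the endoplasmic reticulum (-0.50 ± 0.09, adjusted p = 0.00271), and NFE2L1, a relative of NRF2 (-0.59 ± 0.17, adjusted p = 0.0319), fell with the combination.

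Of 22 tested further NRF2 targets, the combination raised 4 and lowered 5, nab-paclitaxel raised 2 and lowered 4, and radiation raised 1 and lowered 3. The shares of all tested genes called in either direction were 22.9%, 8.82% and 5.93%, in that order. SLC7A11, the cystine importer that feeds glutathione synthesis, averaged 14.1 FPKM in combination, 25.5 FPKM in nab-paclitaxel, 27.0 FPKM in radiation and 47.0 FPKM in control libraries. It fell with each treatment, by 1.67 ± 0.18 with the combination (adjusted p = 0.00019), 0.84 ± 0.18 with nab-paclitaxel (adjusted p = 0.0202) and 0.76 ± 0.18 with radiation (adjusted p = 0.0343), opposite in sign to FTL, GPX1 and SOD1 under the drug. The glycine carrier SLC6A9 (-0.85 ± 0.12, adjusted p = 0.000716) and TRIM16L (-0.49 ± 0.10, adjusted p = 0.00443) fell with the combination, while the reductases PTGR1 (0.77 ± 0.09, adjusted p = 0.000284) and BLVRA (0.76 ± 0.11, adjusted p = 0.00079) and HTATIP2 (0.39 ± 0.10, adjusted p = 0.015) rose. With nab-paclitaxel SLC6A9 (-0.63 ± 0.12, adjusted p = 0.0127) and the export pump ABCC2 (-0.30 ± 0.07, adjusted p = 0.0222) fell, and PTGR1 (0.56 ± 0.09, adjusted p = 0.00641) and BLVRA (0.64 ± 0.11, adjusted p = 0.00838) rose. With radiation ABCC2 (-0.37 ± 0.07, adjusted p = 0.00956) and the export pump ABCC3 (-0.53 ± 0.11, adjusted p = 0.0156) fell, and PTGR1 rose (0.35 ± 0.09, adjusted p = 0.0437). Of 28 tested further redox genes, the combination raised 7 and lowered 5, nab-paclitaxel raised 2 and lowered 0, and radiation raised 0 and lowered 1. The same shares of all tested genes, 22.9%, 8.82% and 5.93%, apply to these counts. SLC3A2, the partner chain of SLC7A11, averaged 52.3 FPKM in combination, 76.9 FPKM in nab-paclitaxel, 69.7 FPKM in radiation and 96.0 FPKM in control libraries, and fell with the combination (-0.86 ± 0.10, adjusted p = 0.000208) and with radiation (-0.45 ± 0.10, adjusted p = 0.0192). TXNRD3 (0.47 ± 0.08, adjusted p = 0.00215) and the glutathione transferase GSTK1 (0.44 ± 0.09, adjusted p = 0.00607) rose with the combination, as did GGCT of glutathione breakdown (0.43 ± 0.11, adjusted p = 0.0156), while CHAC1, which degrades glutathione (-0.95 ± 0.18, adjusted p = 0.00436), and the methionine sulfoxide reductase MSRB3 (-0.37 ± 0.08, adjusted p = 0.00677) fell. With nab-paclitaxel the glutathione transferase GSTO1 (0.52 ± 0.13, adjusted p = 0.033) and the selenoprotein SELENOW (0.38 ± 0.11, adjusted p = 0.0485) rose.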

How the data were processed

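Gene expression was measured in 12 libraries of TFK1 cells, 3 in each of 4 groups, prepared with a SMARTer mRNA-seq kit and checked on a Bioanalyzer, per the labels' protocols. FPKM values of each gene were deposited by the authors as 1 table, per the file headers. The submitters' processing notes name hg38 as the build. For the aligner, the counter and any use of strand, the sources used here give no information. FPKM times gene length gave whole multiples of 1 step in 100% of values (within 0.05 of a fragment), so fragments could be recovered, at 14840283 to 17992242 per library. The deposited scaling differed by 0% from median-of-ratios size factors of those fragments and by up to 8.523% from library totals, so a change is relative to the typical gene and not to total RNA.

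The 13609 of 58735 genes averaging 1 FPKM or more were fitted as log2(FPKM + 1) with limma 3.58.1 in R 4.3.3, all groups sharing 1 estimate of the spread (8 residual and 3.39 prior degrees of freedom) with a mean-variance trend. A fold change on this scale understates that of low genes. Tests were two-sided, with Benjamini-Hochberg adjustment over all tested genes within each of 6 contrasts and for a moderated F test, at a threshold of 0.05. The fit was tested on simulated data. Groups came from the labels. The members and gene lists were chosen with earlier results of these data known, and so was the set of 3 libraries left out together. All 39 members were accounted for, those called by any test with values per library. From the further lists up to 3 rises and 3 falls with the smallest p in each comparison with control were named.

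The labels tie replicate numbers to no shared batch. Deviations of same-numbered combination and control libraries correlated across genes at 0.233, 0.543 and 0.172, all over 0.1. The block was therefore taken to pair these groups, and no other pair of groups met this. It was fitted on all 12 libraries, so in other comparisons it joined numbers that did not pair. A loss under the block says little about a call there. Alternatives changed the pseudocount (0.1), the filter (none, or 5 FPKM), the scaling (size factors over the tested genes, TPM, quantile), the trend (none), the genes (protein-coding), the test (voom of limma, on recovered fragments) and the libraries (only the groups compared, each left out in turn, those 3 left out together), and added the replicate block. A second table entry for SOD2 was not used. Promoter windows are from RefSeq (GRCh38.p14).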

Additional observations from a re-analysis of the deposited data

How the results depend on the processing

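Of 33 calls of members, 12 were lost in no alternative, 21 in at least 1, and 0 reversed. Scaling moved the median of all tested genes by at most 0.08 on the log2 scale. The count of members called was 9 for the combination against control (19 without the 3 libraries that stood apart, 7 to 12 leaving out 1 library, 8 with the replicate block). It was 10 for nab-paclitaxel (4 with no filter, 6 with TPM scaling, 4 after quantile normalization, 0 with only the groups compared, 6 to 10 leaving out 1 library, 7 with the block). It was 3 for radiation (5 with a 5 FPKM filter, 1 with TPM scaling, 1 with the block, 1 with only the groups compared, 12 without the 3 libraries, 1 to 4 leaving out 1). For the combination against radiation it was 10 (5 with no filter, 4 after quantile normalization, 22 without the 3 libraries, 5 to 14 leaving out 1, 9 with the block). For the combination against nab-paclitaxel it was 1 (3 with a 5 FPKM filter, as with protein-coding genes only, 2 with size factors, TPM or voom, 4 after quantile normalization, 0 with only the groups compared, 5 without the 3 libraries, 1 to 3 leaving out 1, 1 with the block). The interaction was called for 0 members in each alternative. The F test called 17 (26 without the 3 libraries, 12 to 20 leaving out 1). Fits of only the groups compared give no interaction or F test. By the rule above the block pairs only combination with control, so its counts for other comparisons say little.

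Median log2 changes of the NRF2 targets were 0.11 for the combination (0.047 to 0.12 leaving out 1 library), 0.28 for nab-paclitaxel (0.14 after quantile normalization, 0.24 to 0.33 leaving out 1) and -0.10 for radiation (-0.042 after quantile normalization, -0.025 without the 3 libraries, -0.12 to -0.025 leaving out 1). They were 0.16 for the combination against radiation (0.075 quantile, 0.25 without the 3, 0.16 to 0.25 leaving out 1), -0.10 against nab-paclitaxel (-0.17 to -0.072 leaving out 1) and -0.04 for the interaction (0.058 without the 3, -0.08 to 0.01 leaving out 1). For the other antioxidant genes they were 0.29 for the combination (0.28 to 0.42 leaving out 1), 0.34 for nab-paclitaxel and -0.06 for radiation, which turned to 0.086 after quantile normalization. They were 0.36 for the combination against radiation (0.18 quantile), -0.07 against nab-paclitaxel (0.056 without the 3, -0.12 to 0.064 leaving out 1) and -0.00 for the interaction (0.15 without the 3, -0.061 to 0.12 leaving out 1). The cause of these shifts was not tested. With 14840283 to 17992242 fragments per library, members with few fragments are measured least precisely, among them SRXN1 (61 to 217 fragments) and the 4 members under 1 FPKM.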
